A study of Mus musculus with 20 samples.

Results

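The 10 genes described here are a set of genes by which astrocytes are usually recognised: Gfap, Aqp4, Aldh1l1, Slc1a2, Slc1a3, S100b, Gja1, Gjb6, Sox9 and Aldoc. They were chosen by name from the annotation that accompanied the counts, each matched 1 gene, and together they are 10 of the 48709 genes counted. RNA came from the right hippocampus of 20 young adult mice, C57BL/6 in the labels and C57BL/6J in the study's methods, whose brains had been perfused with saline. Their dams had inhaled re-aerosolized nPM, a nano-sized fraction of urban particulate matter, or filtered air from early gestation until birth, and the offspring themselves were not exposed after birth. Each combination of sex and exposure, nPM or control, was represented by 5 animals. The labels give ages of 17.71 to 18.29 weeks for females and 18.57 to 19.14 weeks for males. Per the study's methods, males of the cohort had been injected with the thymidine analogue EdU before the tissue was taken, so sex, age and injection cannot be told apart. The litter of each animal is not given in the labels, and littermates within a group would make the p-values too small.

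Astrocytes are glial cells that clear transmitter from synapses, buffer potassium and water, supply neurons with metabolites and wrap blood vessels with their endfeet. They respond to injury and inflammation with a change of shape and of gene expression that is called reactivity, and a rise of the filament protein GFAP is its most used sign. In the hippocampus they are coupled by gap junctions into wide networks, and some Gfap-expressing cells of the dentate gyrus are neural stem cells. In a piece of whole tissue, fewer astrocytes and less RNA per astrocyte cannot be told apart.

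Between 19092067 and 38663408 reads were counted on genes per library. The sex marker genes fit the labelled sex in 20 of 20 libraries. All 10 members were counted in every library, from at least 368 reads for Sox9 to at most 169983 for Slc1a2, so no value rests on few reads. In 7 libraries the summed markers of the choroid plexus, a tissue inside the ventricle beside the hippocampus, stood above 3 times the median. These were control males 2, 4 and 5, nPM females 1 and 5, and nPM males 2 and 3. Over all libraries this sum ranged from 33.6 to 8497 CPM (counts scaled to the library total). The summed level of the 10 astrocyte genes varied far less, from 5263 to 6928 CPM.

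The gene positions are those of build mm10 in the annotation used for counting. Gfap (ENSMUSG00000020932.14) lies on the minus strand of chr11:102887336-102900912. S100b (ENSMUSG00000033208.7) is on the plus strand of chr10:76253853-76261159 and overlaps the protein-coding gene Dip2a on the other strand. Dip2a held 53494 counts over the 20 libraries and S100b 46999, and the strand setting of the counting is not given in the sources used here, so a share of reads could be exchanged between them. Gja1 (ENSMUSG00000050953.9) is on the plus strand of chr10:56377300-56390419, and Aldoc (ENSMUSG00000017390.15) on the plus strand of chr11:78322968-78327781; neither overlaps another gene. Slc1a3 overlaps Gm37310 on its own strand (3906 counts against 345992), and Slc1a2 the antisense gene Gm13872 (1030 counts against 2600962).

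For 8 of the 10 members the 250 bases before the RefSeq start (build GRCm38.p6) were read, with both starts of Aldoc; those of Aqp4 and Sox9 were not analysed here. The windows shown are those of Gfap, the member that varied most between animals, and of S100b, Gja1 and Aldoc, which differed between males and females. Capitals mark matches on either strand to 4 short motifs: TTGGC, the core of the site of nuclear factor I, a factor of astrocyte differentiation; TTCNNNGAA, the core of the STAT site; ACAAAG, a core of SOX sites; and TATAAA, the TATA box. None of these matches overlapped another in the windows shown.
Gfap, chr11:102897201-102897450, minus strand: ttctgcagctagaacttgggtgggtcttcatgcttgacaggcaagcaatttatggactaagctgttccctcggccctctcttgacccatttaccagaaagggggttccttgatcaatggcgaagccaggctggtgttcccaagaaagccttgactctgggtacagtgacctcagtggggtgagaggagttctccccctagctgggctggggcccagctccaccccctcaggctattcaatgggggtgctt
S100b, chr10:76253586-76253835, plus strand: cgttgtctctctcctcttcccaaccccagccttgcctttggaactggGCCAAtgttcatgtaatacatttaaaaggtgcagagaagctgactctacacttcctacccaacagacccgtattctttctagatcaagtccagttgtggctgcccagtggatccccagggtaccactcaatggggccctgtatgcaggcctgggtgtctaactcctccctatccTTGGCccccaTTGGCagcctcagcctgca
Gja1, chr10:56377050-56377299, plus strand: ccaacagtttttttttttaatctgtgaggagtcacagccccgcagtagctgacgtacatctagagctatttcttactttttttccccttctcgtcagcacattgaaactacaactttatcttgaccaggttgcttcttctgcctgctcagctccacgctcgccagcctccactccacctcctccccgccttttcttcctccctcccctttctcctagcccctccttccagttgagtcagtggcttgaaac
Aldoc, upstream start, chr11:78322823-78323072, plus strand: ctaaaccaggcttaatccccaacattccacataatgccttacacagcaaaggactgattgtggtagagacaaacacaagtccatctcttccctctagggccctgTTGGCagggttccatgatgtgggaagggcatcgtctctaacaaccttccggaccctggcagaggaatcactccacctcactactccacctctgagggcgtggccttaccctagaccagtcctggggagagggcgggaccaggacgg
Aldoc, downstream start, chr11:78323948-78324197, plus strand: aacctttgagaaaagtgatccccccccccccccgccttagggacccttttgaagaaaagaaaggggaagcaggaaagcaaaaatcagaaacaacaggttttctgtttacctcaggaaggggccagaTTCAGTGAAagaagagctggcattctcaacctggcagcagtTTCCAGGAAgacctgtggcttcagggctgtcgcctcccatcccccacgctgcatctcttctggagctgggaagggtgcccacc
The S100b window held TTGGC at 3 positions, 203, 29 and 19 bases before the start. The window of the upstream Aldoc start held it at 1 position, and that of the downstream start held TTCNNNGAA at 2, while the windows of Gfap and Gja1 held none of the 4 motifs. Of the 8 members with a window, 3 held TTGGC (S100b, Aldoc and Slc1a2) against 41.5% of 32851 RefSeq windows of this length, and 2 held TTCNNNGAA (Aldoc and Slc1a3) against 7.02%. TATAAA was found in 1 (Slc1a3) against 12.4%, and ACAAAG in 0 against 16.5%. A match is a run of letters, not a site shown to be bound.

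Levels are given as RPKM, the counts scaled to the length of the gene and the total of the library. The glutamate transporters differed in level. Slc1a2 (GLT-1), which clears most of the synaptic glutamate of the forebrain, was the highest member at 330.4 ± 37.7 RPKM (SD, n = 20), while Slc1a3 (GLAST), which is also made by radial stem cells, stood at 66.7 ± 6.13. Aldoc, the aldolase of astrocyte glycolysis, was second at 171 ± 18.0 RPKM.

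The gap junction proteins differed too. Gja1 (connexin 43) stood at 64.0 ± 6.99 RPKM and Gjb6 (connexin 30) at 25.6 ± 3.82. Gfap itself was at 63.3 ± 22.7 RPKM, S100b, a calcium-binding protein, at 51.6 ± 5.52, and Aqp4, the water channel of the endfeet, at 31.8 ± 7.97. Aldh1l1, a folate enzyme used as a pan-astrocyte marker, at 10.7 ± 1.03 RPKM, and Sox9, a transcription factor of the astrocyte lineage, at 5.48 ± 0.762, were the lowest members.

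Some neighbours in this order were not separated. Slc1a3 was above Gja1 in 13 of 20 libraries, Gja1 above Gfap in 15, Gfap above S100b in 16, and Aqp4 above Gjb6 in 16. All other neighbours kept their order in 20 of 20. Even Sox9 was above 84.3% of the 48709 genes in mean RPKM, and Slc1a2 above 99.9%.

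**Figure D1:**
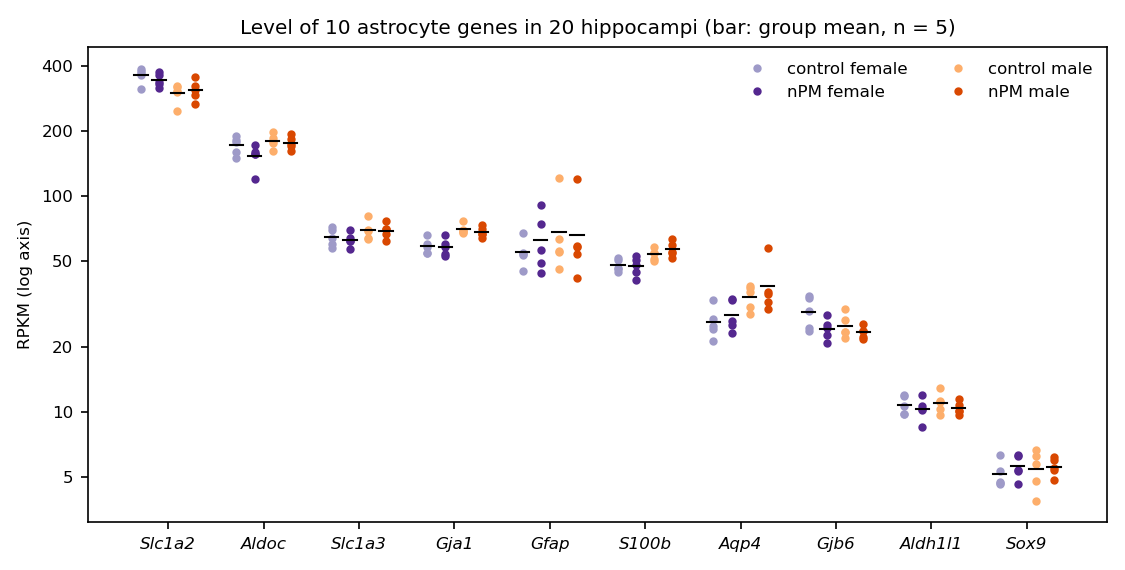
RPKM of each of the 10 genes on a log axis, with 1 point per hippocampus, coloured by group, and a bar at the mean of each group of 5. The members run from Slc1a2 at 248.4 to 390.2 RPKM down to Sox9 at 3.90 to 6.67, and single high points of Gfap and of Aqp4 stand apart from their groups.

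Gfap was the most variable member between animals, and Aqp4 came next. The coefficient of variation over the 20 libraries was 35.9% for Gfap and 25.1% for Aqp4, against 9.20% to 14.95% for the other 8. Within groups the SD of log2 expression (log2 CPM after normalisation) was 0.45 for Gfap, higher than for 73.0% of the 19797 genes that passed the filter on low counts. The median of all these genes was 0.26. Gja1 (0.09) and S100b (0.10) lay at the other end, and only 3.89% and 6.79% of genes had a smaller SD.

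The spread of Gfap came from a few animals in 3 of the 4 groups. Control females 1 to 5 had 68.0, 53.7, 45.01, 54.4 and 54.1 RPKM, and nPM females 1 to 5 had 90.9, 49.2, 74.3, 44.3 and 56.6. Control males 1 to 5 had 46.1, 55.0, 122.2, 63.3 and 55.9 RPKM, and nPM males 1 to 5 had 119.9, 58.7, 58.2, 41.7 and 54.2. Control male 3 and nPM male 1 had about the same high level, nPM females 1 and 3 came next, and the other 16 lay between 41.7 and 68.0 RPKM in all groups.

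Aqp4 was highest in nPM male 1 too, but not in control male 3. Control females 1 to 5 had 33.2, 21.3, 24.3, 27.1 and 25.1 RPKM, and nPM females 1 to 5 had 26.6, 25.4, 33.4, 23.3 and 33.0. Control males 1 to 5 had 37.8, 38.4, 28.6, 36.2 and 30.6 RPKM, and nPM males 1 to 5 had 57.9, 36.2, 35.1, 30.1 and 32.4. Thus 1 hippocampus stood far above the other 19, which ranged from 21.3 to 38.4.

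In nPM male 1 other genes stood apart as well. Slc17a6, the vesicular glutamate transporter that is high in thalamus and low in hippocampal principal cells, was at 27.6 RPKM there and at 3.06 to 14.8 in the other libraries. Slc6a11 (GAT-3), a GABA transporter of astrocytes, was at 45.9 RPKM against 9.85 to 32.6, and Kcnj10 (Kir4.1), their main potassium channel, at 30.5 against 9.63 to 25.8. The second highest library for all of these was control female 1. In control male 3, the other library with high Gfap, Slc17a6 (9.89 RPKM), Slc6a11 (13.2) and Kcnj10 (13.03) lay within the range of the remaining libraries. These genes were picked after their values had been seen, and their part in the Gfap and Aqp4 levels was not tested.

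**Figure D2:**
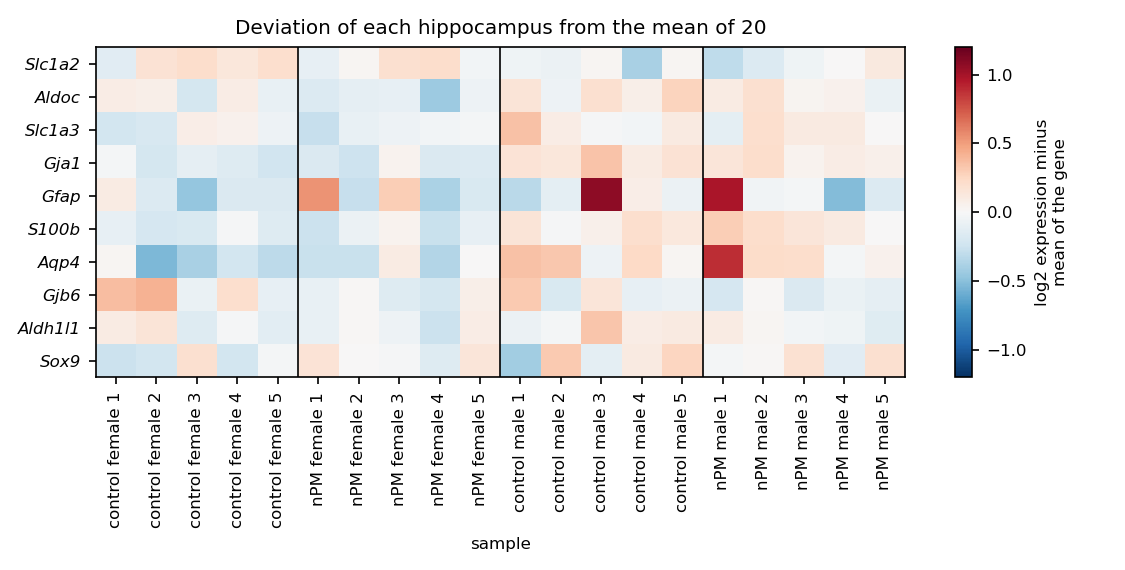
Deviation of each hippocampus (columns, by group) from the mean of the 20, in log2 expression, for each gene (rows), red above and blue below the mean. Gfap is high in control male 3, nPM male 1 and nPM female 1, Aqp4 is high in nPM male 1, and Gja1, S100b and Aldh1l1 are pale throughout.

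The question put by the study was whether exposure before birth left a lasting mark on the adult hippocampus. For the astrocyte genes, no difference between nPM and control animals passed the study's threshold of p under 0.005. With both sexes in 1 fit (limma-voom, sex as a covariate), 28 of 19797 genes passed, or 0.141%, and 0 of the 10 members did. In males 0.207% of genes and 0 members passed, in females 0.0909% and 0, and for the difference between the sexes in the nPM effect 0.217% and 0. The edgeR quasi-likelihood test and the DESeq2 Wald test called 0 members in each of the 4 comparisons too, and the smallest Benjamini-Hochberg adjusted p of a member in the 4 limma fits was 0.963.

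Gjb6 was the only member with an unadjusted p under 0.05 with both sexes, where 2.1% of all genes had one, and no member had one in males (4.28% of genes), in females (1.99%) or for the interaction (3.79%). Females had 29.2 ± 4.9997 RPKM as controls and 24.4 ± 2.71 after nPM (SD, n = 5), and males 25.2 ± 3.30 and 23.5 ± 1.46. The groups overlapped in both sexes. The log2 difference, nPM minus control, was -0.18 (SE 0.07, limma adjusted p = 0.9998). Without control female 2 it was -0.15 and without nPM female 4 -0.16, each no longer under 0.05 before adjustment.

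Gfap, the member most tied to reactivity, differed by 0.05 on the log2 scale between nPM and control animals (SE 0.18, limma adjusted p = 0.9998). The 95% confidence interval ran from -0.33 to 0.42. In females the difference was 0.19 (interval -0.18 to 0.56) and in males -0.08 (-0.72 to 0.55). Single animals set the sign in males: it was 0.15 without control male 3 and -0.33 without nPM male 1. In females it was 0.05 without nPM female 1. With 5 animals in each combination of sex and exposure, differences of Gfap anywhere within these intervals remain compatible with the values.

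The other members were bounded more closely. Over all 10, the differences with both sexes lay between -0.18 and 0.11 with a median of -0.03. Gja1 differed by -0.04 (interval -0.13 to 0.06), S100b by 0.02 (-0.08 to 0.12), Slc1a3 by -0.03 (-0.15 to 0.09) and Slc1a2 by -0.02 (-0.16 to 0.11). Aldoc (-0.11, interval -0.23 to 0.01) and Aldh1l1 (-0.08, -0.20 to 0.04), both metabolic enzymes, were lower in nPM animals by less than their errors allow to call. Aqp4 (0.11, -0.10 to 0.32) and Sox9 (0.07, -0.10 to 0.25) were higher by no more than that. No member had control and nPM animals of 1 sex that did not overlap, against 0.662% of genes in males and 0.349% in females.

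**Figure D3:**
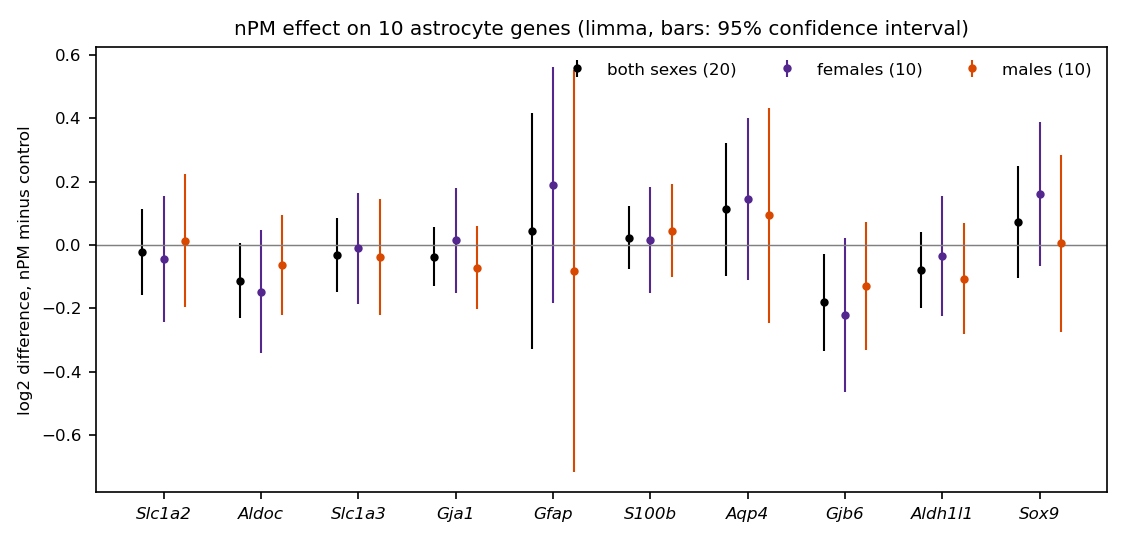
The log2 difference between nPM and control animals for each gene, with both sexes, in females and in males (points, limma) and its 95% confidence interval (bars). The intervals of all but Gjb6 with both sexes include 0, and those of Gfap, from -0.72 to 0.55 in males, are the widest.

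The genes of the reactive state gave the same count. Of 36 genes of 3 published kinds of reactive list (pan-reactive, A1 and A2), 31 passed the filter on low counts. Of these 31, 0 had p under 0.005 for nPM in any fit, against 0.0909% to 0.217% of all genes. By sign alone, 10 of 11 A1, 8 of 10 pan-reactive and 7 of 10 A2 genes were higher in nPM females. Their median log2 differences were 0.22, 0.15 and 0.11, against 0.004 over all genes. In males 6, 7 and 3 of them were higher, in the same order. These directions were not tested. Lcn2, Timp1, Ugt1a1, Tgm1 and Slc10a6 did not pass the filter. Serpina3n, a secreted protease inhibitor, was at 16.1 ± 3.998 RPKM in females of the control group and 15.7 ± 4.02 in those of the nPM group, and at 15.1 ± 5.50 and 16.8 ± 4.36 in males (SD, n = 5). Vim (vimentin), a filament protein that pairs with GFAP, was at 5.34 ± 0.299, 6.20 ± 1.29, 6.57 ± 1.13 and 6.83 ± 0.977 in the same order, and all its groups overlapped.

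Under a p of 0.05 with both sexes were 2 of the 31, the interferon-induced genes Cxcl10 and Iigp1, where 2.1% of all genes were. Cxcl10, a chemokine, held only 0 to 23 counts per library and differed by 1.45 on the log2 scale (SE 0.46, limma adjusted p = 0.9998). Its unadjusted limma p of 0.00505 only just missed the threshold of 0.005. Iigp1 differed by 0.39 (SE 0.18, limma adjusted p = 0.9998). In females Cxcl10 differed by 2.26 (SE 0.70) and Iigp1 by 0.64 (SE 0.29), and in males by 0.79 (SE 0.52) and 0.17 (SE 0.19). Both were under an unadjusted 0.05 in females, as 1.99% of all genes were, and neither was in males, where Fbln5 was (-0.45, SE 0.19); for 0 of the 31 was the difference between the sexes under 0.05. Of 28 further astrocyte genes only Bcan (brevican, a matrix proteoglycan) passed in any nPM fit, being 0.28 higher in nPM males (SE 0.08, limma adjusted p = 0.963). In males 0.207% of all genes passed. None of 13 astrocyte transcription factors, 7 genes of the endfoot complex or 10 of the glutamate-glutamine cycle passed in any nPM fit. The share of all genes was 0.0909% to 0.217%, so lists this short say little by their counts.

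Between the sexes, 4 of the 10 members differed at p under 0.005, all of them higher in males, where 31.1% of all genes passed 13.9% as higher in males and 17.1% as lower. So many genes differed between these males and females that 4 of 10 is near the share of the whole table. Gja1 was 0.29 higher in males on the log2 scale (SE 0.04, limma adjusted p = 4.7e-05) and S100b 0.26 (SE 0.05, adjusted p = 0.000275). For Aqp4 the difference was 0.44 (SE 0.10, limma adjusted p = 0.00148), and for Aldoc 0.18 (SE 0.06, adjusted p = 0.0138). The call of Aldoc was the weakest: it passed in 9 of the 20 fits that left out 1 library, and the other 3 members in all 20. Over the 10 members the median was 0.17, against 0.02 over all genes. At an unadjusted p under 0.05 there were 6 members, against 48.4% of all genes.

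The values show how evenly Gja1 and S100b separated. Gja1 had a lowest, median and highest value of 52.8, 58.2 and 66.1 RPKM in females and of 64.3, 68.6 and 77.3 in males, and on the log2 scale 9 of 10 males were above the highest female. S100b had 40.9, 47.4 and 53.1 RPKM in females and 50.5, 54.7 and 63.7 in males, with 8 of 10 males above the highest female. No member had males and females that did not overlap at all, which 4.82% of all genes had.

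Within exposure groups, Gja1 and Aqp4 passed among control animals (18.6% of all genes did) and Gja1 and S100b among nPM animals (11% of all genes), by the same limma model. Among control animals the males of both Gja1 and S100b lay wholly above the females (exact permutation test, two-sided, p = 0.00794, the smallest it allows with 5 against 5), a separation that 19.8% of all genes had there. Among nPM animals 1 female, nPM female 3, overlapped with the males for each gene, where 11.2% of all genes did not overlap (exact permutation test, p = 0.0159). Adjusted over the 40 exact tests run on the members, both p-values became 0.106. Aqp4 was 0.46 higher in control males than in control females and 0.43 higher in nPM males than in nPM females (exact permutation test, p = 0.0159 and 0.0397, or 0.106 and 0.227 adjusted over the 40).

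Slc1a2 went the other way, by -0.18 (SE 0.07, limma adjusted p = 0.0365), and Slc1a3 was 0.16 higher in males (SE 0.06, limma adjusted p = 0.0248). Both missed the threshold of an unadjusted 0.005, so no change is claimed for them, and with total counts in place of TMM scaling Slc1a2 passed it (-0.22, SE 0.06). Gfap differed by 0.17 (interval -0.20 to 0.55), Aldh1l1 by 0.06, Sox9 by 0.07 and Gjb6 by -0.09, all with intervals that include 0.

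These calls depended on the libraries and the model. With age as a covariate, which is possible only through the small spread of age within a sex, 84 genes and 0 members passed. Gja1 then differed by 0.34 (SE 0.14) and S100b by 0.20 (SE 0.15), while Aqp4 (-0.18, SE 0.27) and Slc1a2 (0.17, SE 0.18) changed sign. Without the 7 libraries of high choroid plexus signal, Gja1 alone of the members passed (0.31), beside 2940 genes, and the differences of S100b (0.23), Aqp4 (0.45) and Aldoc (0.21) were of about the same size with larger errors. Over all libraries 0 of 8 choroid plexus markers were called between the sexes, where 31.1% of all genes were. Yet all 8 were higher in males, with a median log2 difference of 1.25, and 5 of the 7 high libraries were from males. Their sum ranged from 33.6 to 8497 CPM, so the missing calls do not show equal levels.

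**Figure D4:**
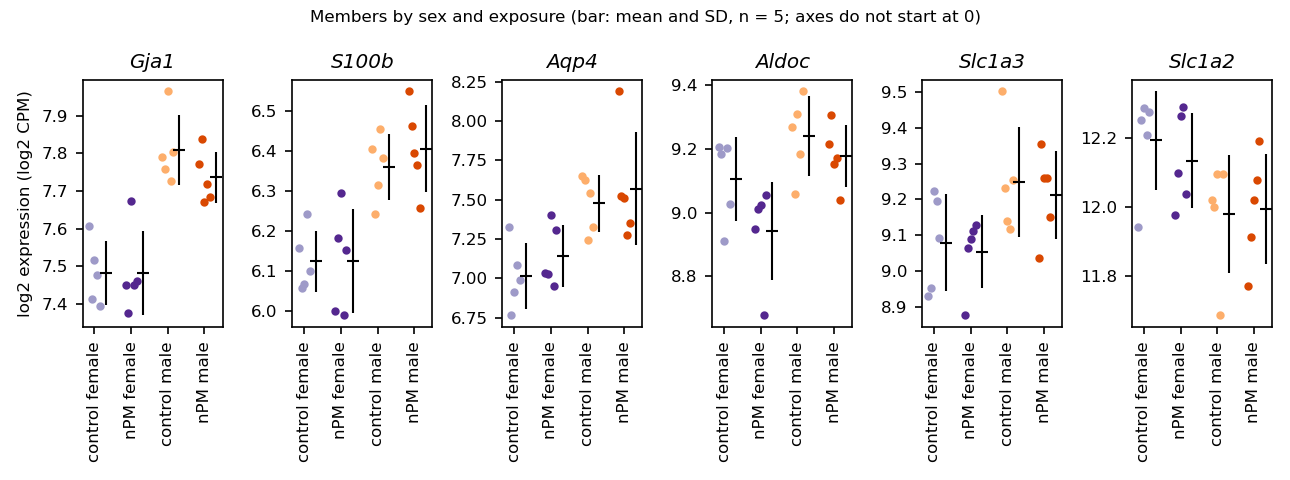
Log2 expression (log2 CPM) of the 6 members with an unadjusted p under 0.05 between the sexes, with 1 point per hippocampus and the mean and SD of each group of 5 beside it. The means of the male groups lie above those of the female groups for Gja1, S100b, Aqp4, Aldoc and Slc1a3 and below them for Slc1a2. Single males and females overlap for each of the 6, and the control and nPM points of each sex overlap.

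Other astrocyte genes differed between the sexes in both directions. Of the 28 further astrocyte genes 4 were higher in males and 2 lower at p under 0.005, or 6 of 28 against 31.1% of all genes. Apoe, the lipid carrier that astrocytes secrete, was 0.38 higher (SE 0.07, limma adjusted p = 0.00034), and Cldn10, Ppp1r3c and Ndrg2 were higher by 0.26, 0.28 and 0.15. Atp1b2, the glial subunit of the sodium pump (-0.57), and Cbs, an enzyme of sulphur amino acids (-0.31), were lower in males.

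Among 13 transcription factors of the lineage, Sox2 (0.44), Hes5 (0.71) and Id4 (0.32) were higher in males and Nfix (-0.58) was lower, a share of the list close to the 31.1% of all genes. Of the 7 endfoot genes, Mlc1 was higher (0.28) and Hepacam, whose protein binds MLC1, was lower (-0.30). In the families of the members, 5 of 9 measured S100 genes were higher (S100b, S100a1, S100a4, S100a10 and S100a16) and none was lower, against 13.9% of all genes higher and 17.1% lower, and Aldoa moved with Aldoc (0.29, SE 0.07). The connexins split, with Gja1 higher and the low-level Gjc1 (-0.36) and Gja6 (-1.0035) lower. Of the 31 measured genes of the reactive lists only 3 passed, against 31.1% of all genes. S1pr3 (0.42) and S100a10 (0.60) were higher in males, and Fkbp5, a glucocorticoid-induced chaperone, was lower (-0.37).

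Markers of other cells differed between the sexes too, beside the 13.9% of all genes that were higher and 17.1% that were lower in males. Of 7 microglial markers 3 were higher in males and none lower, with summed levels of 204 to 323 CPM in females and 263 to 318 in males. Of 6 endothelial markers 3 were lower and none higher, with sums of 146 to 215 CPM in females and 113 to 137 in males, which did not overlap, as 4.82% of single genes did not. Of 8 neuronal markers 2 were lower (Rbfox3 and Camk2a), of 7 oligodendrocyte markers 1 was higher (Opalin), and of 4 pericyte markers 1 was lower (Abcc9). By sign alone, without a threshold, all 7 microglial, 7 oligodendrocyte, 8 choroid plexus, 5 ependymal and 3 measured blood markers were higher in males. All 6 endothelial markers were lower. The other lists were mixed: 5 of the 8 neuronal markers were higher and 3 lower, and the pericyte markers split into 2 and 2. Meningeal fibroblast markers had 4 higher and 1 lower, and oligodendrocyte precursor markers 3 and 1. Dentate granule cell markers had 3 and 3, and pyramidal cell markers 2 and 4. The astrocyte sum itself was 6062 to 6928 CPM in females and 5263 to 6614 in males, and Slc1a2 made up most of it. The part of cell numbers in the differences of the members was not tested.

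Across the 20 hippocampi the members did not vary as 1 block. Of their 45 pairs, 26 had a positive Pearson correlation of log2 expression and 19 a negative one, and the median r was 0.06. After adjustment over the 45 pairs, 10 passed 0.05 by Pearson's r and 8 by Spearman's rho as well.

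The closest pair was Aqp4 and S100b (r = 0.83, rho = 0.83, adjusted permutation p = 0.00045 and 0.000675). It was 0.79 without nPM male 1 and control female 2, the libraries farthest from the median of Aqp4, and 0.64 after the group means were removed. S100b and Gja1 (r = 0.78, rho = 0.81, adjusted permutation p = 0.00113 and 0.000675) kept 0.78 without nPM male 1 and nPM female 4, and had 0.35 with group means removed, 0.02 within males and 0.50 within females. Aldh1l1 and Aldoc, both enzymes, were related within groups as well (r = 0.72, rho = 0.74, adjusted permutation p = 0.00473 and 0.00414; 0.59 without control male 3 and nPM female 4; 0.73 with group means removed).

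Slc1a2 ran against the endfoot channel. Its r with Aqp4 was -0.72 (rho = -0.71, adjusted permutation p = 0.00416 and 0.00458), -0.62 without nPM male 1 and control female 2 and -0.57 with group means removed. Beside this, Slc1a2 followed the summed neuronal markers (r = 0.77, rho = 0.68, permutation p adjusted over 120 pairs 0.0108 and 0.0441), with 0.67 without control male 4 and nPM female 1. With group means removed that value was 0.73. Against the meningeal fibroblast sum Slc1a2 had r = -0.65 and rho = -0.76 (adjusted permutation p = 0.0323 and 0.0066), -0.67 without control male 1 and nPM female 4 and -0.61 with group means removed. Of the 120 pairs of a member and a cell type sum, 9 passed by Pearson's r and 4 by rho as well. Neuronal markers were Rbfox3, Snap25, Syt1, Tubb3, Map2, Eno2, Slc17a7 and Camk2a, and all of these points share a library and its depth.

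Sox9 varied with the sums of 4 cell types, among them ependymal cells, which also express it. Its r with the summed ependymal markers was 0.68 (rho = 0.69, adjusted permutation p = 0.0323 and 0.0352), 0.65 without nPM female 4 and control male 2, and 0.74 with group means removed. With the choroid plexus sum it was 0.65 (rho = 0.61, adjusted permutation p = 0.0323 and 0.0571; 0.64 without nPM female 1 and control male 4; 0.63 with group means removed). It was as high with the oligodendrocyte sum (r = 0.66, rho = 0.61, adjusted permutation p = 0.0323 and 0.0571; 0.46 without control male 1 and nPM female 4; 0.74 with group means removed) and with the dentate granule cell sum (r = 0.65, rho = 0.58, adjusted permutation p = 0.0323 and 0.0734; 0.55 without control male 1 and nPM female 3; 0.77 with group means removed). The ependymal sum ranged from 6.65 to 57.0 CPM, and no ependymal or choroid plexus marker was at 0 in any library. The part of these cells in the Sox9 level was not tested. Gja1 and the endothelial sum (r = -0.75, rho = -0.78, adjusted permutation p = 0.0108 and 0.0066; -0.74 without nPM female 5 and control male 3) had -0.11 once group means were removed.

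Gfap was related to few of the other members. Its closest was Aldh1l1 (r = 0.58, rho = 0.52, adjusted permutation p = 0.0380 and 0.0835), and without control male 3 and nPM male 1 this r was 0.23, so it rested on those animals. With Aqp4 it was 0.42 and with S100b 0.30, neither of which passed (adjusted permutation p = 0.144 and 0.329). Against Slc1a3 the r was -0.39 and did not pass either (adjusted permutation p = 0.167). That r was -0.50 without control male 3 and nPM male 1, -0.66 with group means removed, -0.64 within males and -0.68 within females.

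Gfap was also set against the reactive genes. Of the 31 measured reactive genes, 25 had a positive r with Gfap, and 2 passed adjustment by Pearson's r. For Vim, r was 0.67 and rho 0.62 (adjusted permutation p = 0.0102 and 0.0473), with 0.53 without control male 3 and nPM male 1 and 0.69 with group means removed. For Serpina3n, r was 0.71 and rho 0.58 (adjusted permutation p = 0.00899 and 0.0508), with 0.49 without those animals and 0.75 with group means removed. This comparison was added after the data had been seen.

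The 3 animals with the highest Gfap had high levels of both. Serpina3n was at 24.2 RPKM in control male 3, 23.5 in nPM male 1 and 21.6 in nPM female 1, the 3 highest values of the 20, and control female 4, with Gfap at 54.4, came next with 21.4. Vim was at 7.29, 8.26 and 7.99 RPKM in the same 3 animals, and control male 4 had 7.81. They comprised 1 control and 2 nPM animals of both sexes. In nPM female 3, the next in Gfap, Serpina3n was at 17.8 RPKM and Vim at 5.76, within the range of the other animals.

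**Figure D5:**
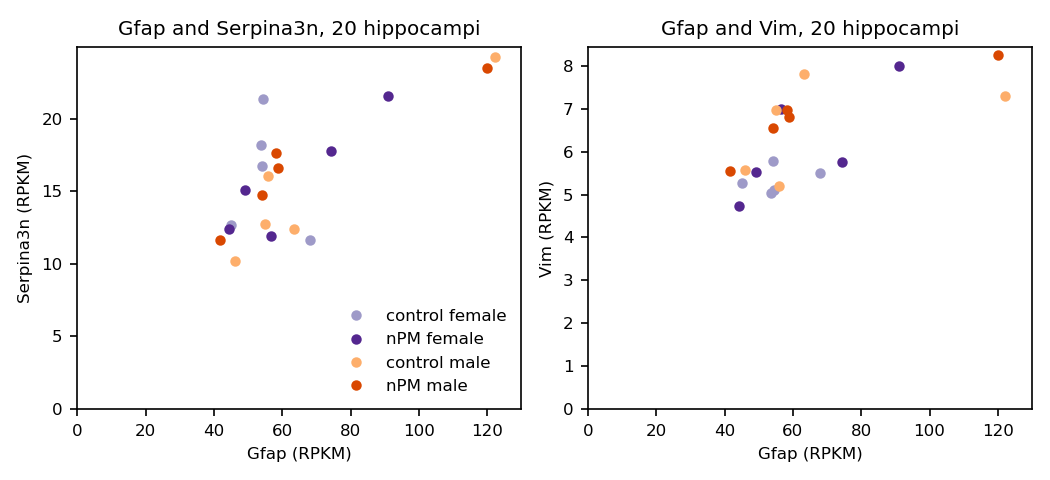
Gfap (horizontal axis, RPKM) against Serpina3n (left) and Vim (right), in RPKM, with 1 point per hippocampus, coloured by group. Control male 3, nPM male 1 and nPM female 1 lie at the upper right of both panels, and the other points form a loose cloud below 75 RPKM of Gfap.

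Over all 19797 genes, those whose log2 expression was most like that of Gfap over the 20 libraries were Smyd4 (r = 0.75), S100a6 (0.74), Trak2 (0.73), Lpo (0.73) and Aurka (0.73), given as a description with no test. Serpina3n was 6th and the complement gene C4b 9th, both at 0.71. Lpo (7 to 48 counts per library) and Aurka (16 to 63) rest on few reads. Without control male 3 and nPM male 1 the r was 0.31 for Smyd4, 0.51 for S100a6 and 0.45 for both Trak2 and Aurka. It was 0.58 for Lpo and 0.49 for Serpina3n, while that of C4b was 0.72. S100a6, a calcium-binding relative of S100b, ranged from 2.15 RPKM in nPM female 4 to 13.7 in control male 3 and 10.6 in nPM male 1. The genes most like the mean of the 10 standardised members were Arl2bp (0.90), Anapc15 (0.90), Cdk5 (0.90), Ndufv1 (0.89) and BC029722 (0.89), and no astrocyte gene of the lists was among them.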

How the data were processed

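Adult hippocampal RNA of 20 mice was sequenced on an Illumina instrument after depletion of ribosomal RNA (RiboZero Gold). The authors trimmed adapters with Trimmomatic, used HISAT2 to align the reads to mm10 and featureCounts (version 1.5.0-p3) to count them on 48709 genes of Gencode, and deposited whole-number read counts, without normalization. The strand and multi-mapping settings are not given in the sources used here. They also deposited gene lengths and a mean RPKM per gene, used here only to check the RPKM computed from the counts. No member had a count of 0 in any library.

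Genes were kept by filterByExpr (edgeR 4.0.16, minimum count 10, minimum total 15), which left 19797. TMM-normalized counts were fitted with limma-voom (limma 3.58.1, R 4.3.3, offset 0.5), as in the study's methods, with p under 0.005 as the threshold and Benjamini-Hochberg adjustment over all genes kept. The fits were nPM with sex as a covariate, nPM in each sex, their interaction, and sex with nPM as a covariate. The fits were tested on simulated data. Single genes were compared by exact permutation tests over 252 groupings, and correlations by 100000 permutations. The named genes are the 10 members, genes of the other lists with p under 0.005 in a fit or among the 3 highest of a list, and the 5 genes most like Gfap and most like the mean of the members. Members and lists were chosen with earlier results of these data known. Alternatives were other scalings and filters, edgeR, DESeq2 1.42.0, sample quality weights, the replicate number as a block, age or choroid plexus signal as a covariate, all groups in 1 fit, and libraries left out. Figures were drawn with matplotlib 3.10.9 in Python 3.11.15. The p-values measure the spread between these samples only.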

Additional observations from a re-analysis of the deposited data

Results flagged for a closer look

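Among the 40 tests of a single animal against its group (10 genes in 4 groups of 5), 6 gave an animal whose gap to the nearest other, as a share of the group's range of log2 expression, was above Dixon's critical value, where chance gives about 2. Aqp4 was high in nPM male 1 (share 0.7295, log2 expression 8.19). Gja1 was high in nPM female 3 (0.7151), the nPM female that overlapped with the males. The other 4 were low values. Slc1a2 was low in control female 1 (0.7691) and in control male 4 (0.7654), the latter with 248.4 RPKM, the lowest of the 20. Slc1a3 was low in nPM female 1 (0.7412), a library of high choroid plexus signal. Aldoc was low in nPM female 4 (0.7181), with 120.0 RPKM against 156.3 to 173.2 in the other nPM females. Gfap gave no such value in any group, but control male 3 came close to the critical value of 0.71. Its Gfap stood at 9.07 in log2 expression, against 7.67 to 8.08 in the other control males.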

How the results depend on the processing

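In every alternative run, 0 members passed p under 0.005 for nPM with both sexes, in males, in females or as an interaction. Counts over all genes moved. With every gene of at least 1 count they were 71, 104, 75 and 149 in that order, and with DESeq2 43, 113, 55 and 89. With at least 1 CPM in 5 samples they were 17 with both sexes and 25 for the interaction, where edgeR gave 66. Sample quality weights gave 53 with both sexes and 44 in females. Total counts without TMM gave 66 and the choroid plexus covariate 74 in males. Without the libraries of high choroid plexus signal there were 14 with both sexes, 29 in females and 135 for the interaction. Leaving out 1 library gave 17 to 47, 23 to 78, 10 to 48 and 24 to 77. For sex it gave 5485 to 6334 genes and 3 to 4 members; Gja1, S100b and Aqp4 passed in all 20, while Aldoc passed in 9. Aldoc missed the threshold under 9 of the other 13 alternatives. Age as a covariate left 84 genes and 0 members, with Aqp4 at -0.18 and Slc1a2 at 0.17 reversed. Without the high choroid plexus libraries there were 2940 genes and 1 member, in control animals alone 3676 and 2, and in nPM animals alone 2184 and 2, the last pair chosen after seeing the data. The cause of these shifts was not tested, beyond fewer samples where libraries were left out. Of 1390 values of members under alternatives, 71 that were past no threshold of 0.05 changed sign, none larger than 0.14 as reported.

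The replicate numbers do not pair the samples: deviations of same-numbered control and nPM animals of a sex correlated from -0.36 to 0.16, and 1 of 20 samples correlated best with its own number. With the replicate number as a block, 20, 35, 22 and 43 genes passed for nPM, and 5739 genes and 3 members for sex, Aldoc no longer passing.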

Other observations

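The most abundant of the further astrocyte genes were Cpe, a peptide-processing enzyme, with a mean of 644 RPKM over the 20 libraries, Sparcl1 (hevin), a secreted protein of synapse formation, with 507, and Glul (glutamine synthetase) with 459, all above Slc1a2 at 330.4. Cpe and Glul are also expressed outside astrocytes. Of the 10 genes of the glutamate-glutamine cycle, by which astrocytes return transmitter to neurons, 0 had p under 0.005 between the sexes (limma), where 31.1% of all genes did, and 1 had p under 0.05. This was Glul, 0.09 higher in males (SE 0.04, limma adjusted p = 0.0686). The list leaves out the uptake transporters Slc1a2 (-0.18) and Slc1a3 (0.16). Both had an unadjusted limma p under 0.05 between the sexes, and neither had one under 0.005. For nPM with both sexes the difference of Glul was -0.05 (SE 0.04, limma adjusted p = 0.9998).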
